A study of Mus musculus with 4 samples.

Results

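The genes described here code for matricellular and provisional matrix proteins and were measured in muscle stem cells (MuSCs) of sham-operated and overloaded plantaris muscle. There were 9 of them among the 19353 genes of the count table: Spp1, Postn, Tnc, Fn1, Thbs1, Thbs4, Sparc, Bgn and 1500015O10Rik. They were chosen by name, with their levels in these same libraries already known, so that their differences between sham and overloaded muscle are given as descriptions, with no p-value of their own. In mice carrying Pax7-CreERT2:Rosa-YFP, tamoxifen had switched on yellow fluorescent protein (YFP) in cells that express Pax7 and in their progeny, and YFP was the basis of the sort. The overloaded muscle was taken 4 days after tenotomy, in which the distal tendons of gastrocnemius and soleus were cut, and the sham muscle after a skin incision alone. Each group had 2 libraries, each made by CEL-Seq2 from a pool of 100 sorted cells. The sources used here give neither the age of the mice nor whether each library of a group had its own mouse, so the p-values below measure the spread between these libraries, which may be technical.

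Matricellular proteins are secreted into the extracellular matrix but build little of its structure; they bind cell surface receptors and other matrix proteins and are typically made during development and tissue repair. Provisional matrix is the early, fibronectin-rich scaffold laid down where tissue is being remodelled, on which cells move and divide. In skeletal muscle, MuSCs sit between the basal lamina and the myofiber and both meet and make such proteins, fibronectin and tenascin-C among them, as components of their niche. Among the genes here, Spp1 (osteopontin), Fn1 (fibronectin), Tnc (tenascin-C) and Postn (periostin) code for glycoproteins that are bound by integrins. Thbs1 and Thbs4 code for thrombospondins, Sparc for a glycoprotein that binds collagen and calcium, and Bgn for biglycan, a small leucine-rich proteoglycan. 1500015O10Rik, listed by RefSeq as Ecrg4, codes for the precursor of augurin, a secreted peptide and not a classical matrix protein.

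The sequences just before the starts of 4 of the 5 genes with few or no UMIs in both sham libraries and many in both tenotomy libraries are shown first. RefSeq (GRCm38.p6) gave a window of 250 bases before the start for 7 of the 9 genes, all but Fn1 and Thbs1. It listed 2 windows each for Spp1, Postn and Tnc, of which 1 for each gene is shown and counted here. The windows shown, written 5′ to 3′ on the gene's own strand, lie at chr5:104434861-104435110 on the plus strand for Spp1, at chr3:54360857-54361106 on the plus strand for Postn, at chr1:43730352-43730601 on the plus strand for 1500015O10Rik and at chr4:64047016-64047265 on the minus strand for Tnc. Capitals mark matches to 6 short motifs searched on both strands. The letters TGANTCA were searched for AP-1 factors and GGAATG for factors of the TEAD family. For RBPJ, the nuclear partner of Notch, the letters were TGGGAA, and for SMAD factors of TGF-β signalling GTCTAGAC. The E-box of myogenic factors was searched as CAGCTG and the TATA box as TATAAA.
Spp1: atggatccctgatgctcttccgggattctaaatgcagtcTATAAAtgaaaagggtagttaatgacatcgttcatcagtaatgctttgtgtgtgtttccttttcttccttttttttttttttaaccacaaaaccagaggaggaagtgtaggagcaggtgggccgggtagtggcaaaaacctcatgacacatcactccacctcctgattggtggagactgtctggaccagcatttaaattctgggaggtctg
Postn: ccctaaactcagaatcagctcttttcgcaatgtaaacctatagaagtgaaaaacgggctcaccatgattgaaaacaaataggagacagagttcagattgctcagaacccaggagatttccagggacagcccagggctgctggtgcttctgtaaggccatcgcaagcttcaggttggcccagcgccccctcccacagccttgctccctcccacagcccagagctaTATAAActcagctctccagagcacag
1500015O10Rik: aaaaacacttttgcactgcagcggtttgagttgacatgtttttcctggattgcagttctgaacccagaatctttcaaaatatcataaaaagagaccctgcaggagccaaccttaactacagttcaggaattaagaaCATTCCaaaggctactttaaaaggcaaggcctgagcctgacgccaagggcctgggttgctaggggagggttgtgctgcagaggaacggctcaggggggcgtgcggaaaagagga
Tnc: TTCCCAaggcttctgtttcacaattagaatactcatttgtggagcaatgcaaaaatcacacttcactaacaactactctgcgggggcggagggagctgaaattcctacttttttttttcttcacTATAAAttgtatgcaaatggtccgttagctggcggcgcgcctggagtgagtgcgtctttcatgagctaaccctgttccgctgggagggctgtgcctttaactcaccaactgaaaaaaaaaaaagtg

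TATAAA was found 211 bases before the start of Spp1, 26 bases before that of Postn and 126 bases before that of Tnc. It was in 3 of the 7 windows, taken as 1 a gene, against 12.4% of all 32851 RefSeq windows of this length, where a gene can have more than 1. In 1500015O10Rik the capitals are the TEAD letters read on the other strand, 114 bases before the start, and in Tnc those at the far end are the RBPJ letters on the other strand. The TEAD letters were in 2 of the 7 windows (1500015O10Rik and Thbs4) and in 12.6% of all windows, and the RBPJ letters in 2 (Tnc and Thbs4) and in 21.6%. The E-box letters were in 2 (Sparc and Bgn) and in 13.0%. The Sparc window, chr11:55420081-55420330 on the minus strand, precedes a RefSeq start that lies 3103 bases inside the gene as annotated by GENCODE. The AP-1 letters, in 6.75% of all windows, and the SMAD letters, in 0.167%, were in 0 of the 7. Such a match describes the letters of the window and nothing was measured about binding to it.

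The libraries held 269683 and 260488 unique molecular identifiers (UMIs, random barcodes that mark each captured RNA molecule) in sham and 387955 and 483528 after tenotomy. Levels are given in TMM CPM, UMI counts relative to the library's total over the 7228 genes tested, after scaling by edgeR's TMM factors, which were 0.909 and 0.908 in sham and 1.08 and 1.12 after tenotomy. Where a library has no UMI of a gene, counting error alone allows up to 3 counts, which corresponds to 13.1 and 13.6 CPM in the sham libraries and to 7.80 and 6.08 CPM in the tenotomy libraries. The 9 genes together took 621 and 583 UMIs in sham, 0.230% and 0.224% of each library, and 1226 and 1285 UMIs after tenotomy, 0.316% and 0.266%. Libraries of the same group differed by slightly more than sampling noise. The chi-square of their counts, divided by its degrees of freedom, was 1.31 in sham and 1.5 after tenotomy and lay between 6.35 and 7.86 for pairs from different groups. All 9 markers of muscle satellite cells used here, among them Pax7, Myf5 and Calcr, were detected in all 4 libraries.

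Spp1 codes for osteopontin, a secreted phosphoprotein bound by integrins and by CD44, and was the most abundant of the 9 genes with no UMI in sham. It lies on chr5:104435118-104441050 (GRCm38), plus strand, has 6 exons in its longest coding transcript, and overlaps Gm42793 on the same strand, which had 3 counts over the 4 libraries. Spp1 had 0 and 0 UMIs in sham against 179 and 165 after tenotomy, equal to 465 and 334 CPM. The groups were fully apart, with tenotomy replicate 1 the higher in CPM. Against a floor of 3 counts over the sham group, Spp1 was at least 58.8-fold higher after tenotomy. This bound, like those of the other genes with no sham UMI, takes the tenotomy counts as they stand, without their own counting error. With the sham group reduced to 1 library the bound was 28.1 without sham replicate 1 and 29.2 without sham replicate 2, because the same floor is then set against fewer UMIs. Counted per tube of 100 cells without scaling, the bound was 114.7. Here and below, counts per tube mix the RNA of the cells with capture and sequencing depth, which cannot be told apart.

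Postn codes for periostin, a matricellular protein of the periosteum, tendon and healing tissue. It lies on chr3:54361109-54391037, plus strand, with 22 exons in its longest coding transcript. It had 0 and 0 UMIs in sham against 59 and 41 after tenotomy, equal to 153 and 83.0 CPM, so that the spread between the tenotomy libraries was wide but both stood above sham. Postn was at least 17.1-fold higher after tenotomy, and the bound was 8.18 and 8.48 without sham replicate 1 and 2 and 33.3 per tube.

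1500015O10Rik (Ecrg4) lies on chr1:43730602-43742578, plus strand, with 4 exons in its longest coding transcript, and overlaps the antisense gene Gm29155, which had 0 counts. It had 0 and 0 UMIs in sham against 40 and 63 after tenotomy, equal to 104 and 128 CPM. It was at least 17.6-fold higher after tenotomy, the bound being 8.43 and 8.74 without sham replicate 1 and 2 and 34.3 per tube. In this gene tenotomy replicate 2 was the higher, whereas in Spp1 and Postn it was replicate 1. Among all genes, 3847 had no UMI in either sham library. Ranked by their UMIs after tenotomy, Spp1 was at place 2, 1500015O10Rik at 4 and Postn at 5. Place 1 was held by Tnnt2, a troponin of the contractile apparatus with 213 and 308 UMIs, and place 3 by Hmga2, a chromatin protein of proliferating cells with 52 and 58 UMIs. Of these 3847 genes, 6 had at least 40 UMIs in each tenotomy library, namely these 5 and Aspm, and 47 were abundant enough to be tested. The limit of 40 equals the count of 1500015O10Rik in tenotomy replicate 1 and was set with these values known, so nothing is read from the 6.

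Fn1 codes for fibronectin, the main glycoprotein of provisional matrix. It lies on chr1:71585520-71653200, minus strand, with 46 exons in its longest coding transcript. It had 1 and 3 UMIs in sham against 94 and 99 after tenotomy. The levels were 4.35 and 13.6 CPM in sham and 244 and 200 CPM after tenotomy, with no overlap between the groups. On means of 8.97 ± 6.53 CPM (SD, n = 2) and 222 ± 31.1 CPM (SD, n = 2), the ratio was 24.7, with an exact (Clopper-Pearson) 95% interval of 9.51 to 91.7 that covers counting error only. The fitted log2 fold change was 4.58 (standard error 0.42). It was 3.96 without sham replicate 1, 5.52 without sham replicate 2 and 5.51 per tube, and 3.93 with a larger prior count of 2.

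Tnc codes for tenascin-C, a large hexameric glycoprotein that is made around activated cells in repairing muscle and tendon. It lies on chr4:63959785-64047015, minus strand, has 26 exons in its longest coding transcript and overlaps 8030451A03Rik, which had 1 count. It had 8 and 2 UMIs in sham against 81 and 109 after tenotomy, equal to 34.8 and 9.06 CPM against 211 and 221 CPM. The tenotomy libraries lay close together, while the sham libraries lay apart at low counts. On means of 21.9 ± 18.2 CPM (SD, n = 2) and 216 ± 7.16 CPM (SD, n = 2), the fitted log2 fold change was 3.26 (standard error 0.36), or 4.49 without sham replicate 1, 2.58 without sham replicate 2 and 4.21 per tube.

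**Figure D1:**
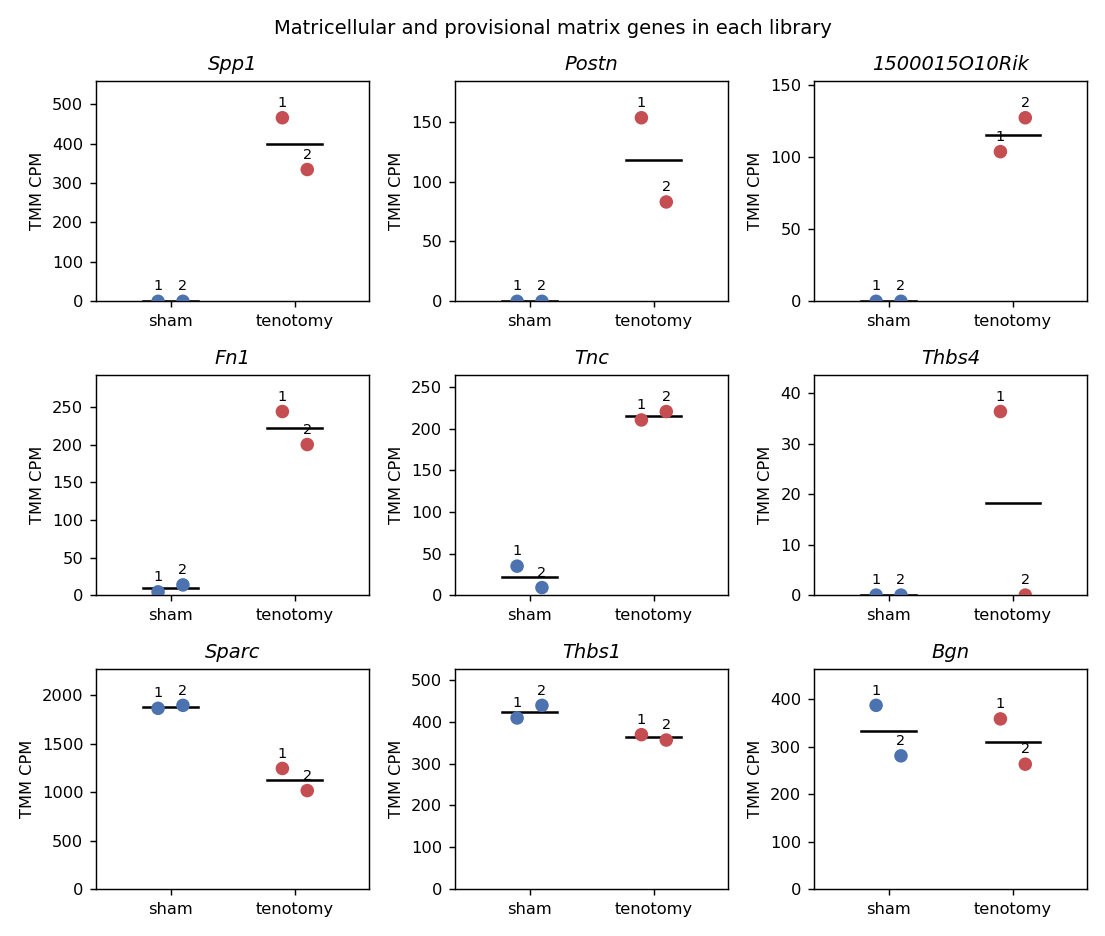
Level of each of the 9 genes (y axis, TMM CPM, linear from 0) in the sham libraries (blue) and the tenotomy libraries (red), each point 1 library with its replicate number and each line the group mean. Spp1, Postn and 1500015O10Rik were at 0 in both sham libraries and between 83.0 and 465 CPM after tenotomy, Thbs4 was above 0 in tenotomy replicate 1 alone, and Sparc was lower after tenotomy on this scale, though higher by UMIs per tube and under abundance offsets.

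Thbs4 codes for thrombospondin-4, a pentameric thrombospondin of tendon and muscle. It lies on chr13:92751590-92794818, minus strand, with 22 exons in its longest coding transcript. It was the only one of the 9 genes that was counted in 1 library alone, with 14 UMIs in tenotomy replicate 1 (36.4 CPM) and 0 in the other 3 libraries. The groups therefore overlapped at 0, and Thbs4 was too low to be tested. By a limit chosen after its values were seen (at least 8 UMIs in 1 library and 0 in the others), Thbs4 was the only such gene of all 19353 in tenotomy replicate 1, while sham replicate 1 had 0, sham replicate 2 had 1 (Gm42616) and tenotomy replicate 2 had 5 (Fcna, Il1b, Gas2, Rtkn2 and Mpeg1). Fmod, another matrix gene of tendon, had 7 UMIs and Tnmd, Chad and Comp had 1 UMI each, all in tenotomy replicate 1 and 0 in the others. Other tendon genes were not highest there: Scx had 40 UMIs in tenotomy replicate 1 and 61 in replicate 2, and Mkx had 1 and 2.

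Sparc codes for a collagen-binding glycoprotein of basement membranes and was the most abundant of the 9 genes in every library. It lies on chr11:55394500-55423183, minus strand, with 10 exons in its longest coding transcript, and overlaps no annotated gene. It had 429 and 419 UMIs in sham against 479 and 502 after tenotomy, equal to 1867 and 1898 CPM against 1245 and 1017 CPM. In CPM both tenotomy libraries lay below both sham libraries, and in UMIs per tube both lay above. From 1883 ± 21.7 CPM (SD, n = 2) to 1131 ± 162 CPM (SD, n = 2), the log2 fold change was -0.74 (standard error 0.16), but 0.21 per tube and 0.36 under offsets that level fold changes across abundance. With library sizes alone it was -0.46, and with 1 library left out it lay between -0.87 and -0.55. The direction for Sparc thus rested on the scale. Its per-tube value lay below the per-tube median over all genes tested, 1.01, and does not show a rise of Sparc RNA per cell.

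Thbs1 codes for thrombospondin-1, which binds CD36, CD47 and syndecans and can activate latent TGF-β. It lies on chr2:118111876-118127133, plus strand, with 22 exons in its longest coding transcript. It had 94 and 97 UMIs in sham against 142 and 176 after tenotomy, or 409 and 439.4 CPM against 369 and 356 CPM. In CPM the tenotomy libraries lay just below the sham libraries (log2 fold change -0.23, standard error 0.17), but the difference was 0.05 with library sizes alone, 0.39 under the abundance offsets and 0.73 per tube. Bgn, which codes for biglycan, a proteoglycan that binds collagen and TGF-β, lies on chrX:73483602-73495933, plus strand, with 8 exons in its longest coding transcript. It had 89 and 62 UMIs in sham against 138 and 130 after tenotomy, or 387 and 281 CPM against 359 and 263 CPM, so that the groups overlapped. Its log2 fold change was -0.12 (standard error 0.20), 0.16 with library sizes alone, 0.39 under the offsets and 0.83 per tube.

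Of the 9 genes, 8 were abundant enough to enter edgeR's quasi-likelihood fit. Spp1, Postn, 1500015O10Rik, Fn1 and Tnc entered it through the tenotomy libraries alone, since their sham counts were too low to pass the filter, so that they were admitted by the group in which they were high. In that fit, over 7228 genes with Benjamini-Hochberg adjustment and a threshold of 0.1, 5 were past the threshold as higher after tenotomy (Spp1, Postn, 1500015O10Rik, Fn1 and Tnc; 25.8% of all genes tested), 1 as lower (Sparc; 26.3%) and 2 were not past it (Thbs1 and Bgn). The CPM of the groups did not overlap for 7 of the 8, 5 of them higher and 2 lower (Sparc and Thbs1, on this scale), against 72.9% of all genes tested, 37.5% higher and 35.4% lower. Since the genes were chosen with these values known, the calls are part of the description and nothing is read from them.

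The mixture of the 9 transcripts also differed between the groups. Because CEL-Seq2 counts a molecule at its poly(A) end, shares of UMIs needed no correction for length, although capture may differ between genes. Sparc made up 69.1% and 71.9% of the 9 genes' UMIs in sham (exact 95% intervals 65.3% to 72.7% and 68.0% to 75.5%) and 39.1% and 39.1% after tenotomy (36.3% to 41.9% and 36.4% to 41.8%). Thbs1 and Bgn made up nearly all of the rest of the sham UMIs, with 15.1% and 16.6% for Thbs1 and 14.3% and 10.6% for Bgn. After tenotomy Spp1 took 14.6% and 12.8%, Fn1 7.67% and 7.70%, Tnc 6.61% and 8.48%, Postn 4.81% and 3.19%, and 1500015O10Rik 3.26% and 4.90%. The order of the 3 most abundant genes was Sparc, Thbs1 and Bgn in sham and Sparc, Spp1 and Thbs1 in tenotomy replicate 1. In tenotomy replicate 2 Thbs1, at 13.7%, stood just above Spp1, within counting error.

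**Figure D2:**
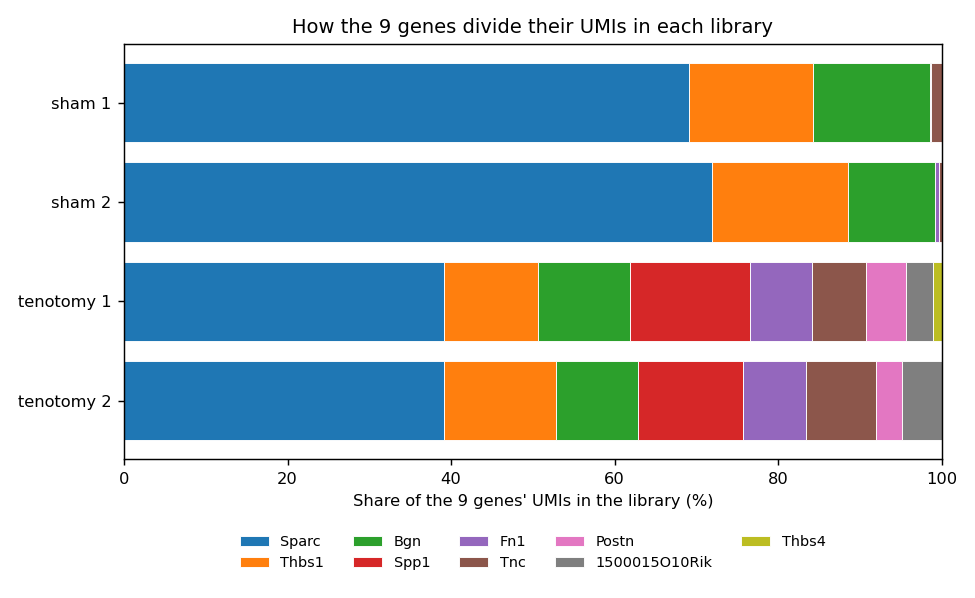
Share of the 9 genes' UMIs taken by each gene (x axis, percent) in each library, 1 bar a library. Sparc filled 69.1% and 71.9% of the sham bars and 39.1% of each tenotomy bar, and Spp1, Postn and 1500015O10Rik appeared in the tenotomy bars alone.

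Ratios taken within a library do not depend on how libraries are scaled. Per 100 UMIs of Sparc, Spp1 had 0 in sham and 37.4 and 32.9 after tenotomy. Fn1 had 0.233 and 0.716 in sham and 19.6 and 19.7 after tenotomy, and Tnc had 1.87 and 0.477 against 16.9 and 21.7. Thbs1 went from 21.9 and 23.2 to 29.7 and 35.1, and Bgn from 20.8 and 14.8 to 28.8 and 25.9, neither with an overlap of the groups. Relative to Sparc, each of these genes thus stood higher in either tenotomy library than in either sham library, which shows unequal change and not which gene moved.

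The genes whose profiles over the 4 libraries lay nearest to each of the 8 tested ones were sought among 4707 tested genes with a mean of at least 20 counts, by the Euclidean distance between log2 TMM CPM after each gene's own mean was removed. They are a description of 4 libraries in 2 groups. For Spp1 they were Tnnt2 (distance 0.727), Mgp (1.17) and Cdk1 (1.38), and for Postn Aspm (0.468), Hmga2 (0.481) and Acot7 (0.625). For 1500015O10Rik they were Dclk1 (0.157), Cacng1 (0.26) and Acot7 (0.284), for Fn1 Tpx2 (0.094), Prune2 (0.17) and Spc24 (0.321), and for Tnc Dut (0.235), Neb (0.319) and Ccdc85c (0.394). The genes that changed less had nearer neighbours. Sparc lay nearest to Hspb1 (0.0182), Serpine2 (0.0314) and mt-Co1 (0.0433), Thbs1 to Stx5a (0.0114), Pqbp1 (0.0316) and Pnn (0.0393), and Bgn to Rnf111 (0.0589), Ric8b (0.0817) and Kdm5a (0.083).

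The other genes of the matrix were taken from 6 lists by function, none of which holds the 9 genes. Of their 104 genes, 92 were matched to the table and 53 were tested. After tenotomy 13 were higher (24.5% of the 53, against 25.8% of all genes tested) and 23 lower (43.4%, against 26.3%), and 17 were not past the threshold. Their median log2 fold change was -0.23, against 0.05 over all genes tested. The split rested on the scale: with library sizes alone 20 were higher and 18 lower, and per tube 31 were higher and 6 lower, where the median over all genes was itself 0.33 and 1.01. Under the abundance offsets, which left that median at 0.03, 17 were higher and 18 lower. The filter also bore on the split, because 12 of the 53 had entered through the tenotomy libraries alone, of which 8 rose (Mgp, Vcan, Has2, Fbln1, Itgb6, Cd36, Pcolce and Crtap) and 4 did not pass. The 2 that had entered through the sham libraries alone both fell (Vtn and Ecm2). The p-values of these genes below are to be read with that limit. With no filter, 18 were higher and 22 lower. The most abundant gene of a list is the one with the highest mean CPM over the 4 libraries. For the marker lists further below it is the one with the most UMIs. Unless another source is named, adjusted p-values below come from the quasi-likelihood test of edgeR, adjusted by Benjamini-Hochberg over all 7228 genes.

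Among other matricellular genes, 2 of 6 tested rose, 2 fell and 2 did not pass, and per tube 5 rose and 1 fell. Mgp, which codes for matrix Gla protein, an inhibitor of calcification, had 2 and 0 UMIs in sham against 163 and 163 after tenotomy. Its ratio was 83.6 (exact 95% interval 23.0 to 693; edgeR adjusted p = 1.15e-07), and its fitted log2 fold change of 6.28 was 10.10 without sham replicate 1, which leaves no sham UMI, and 5.34 without sham replicate 2. Ccn4, a secreted target of Wnt signalling, rose from 113 and 131 CPM to 239 and 269 CPM (log2 fold change 1.06, standard error 0.21, edgeR adjusted p = 0.000774). Thbs2, the thrombospondin closest in structure to Thbs1, fell from 178 and 204 CPM to 49.4 and 48.6 CPM (log2 fold change -1.96, standard error 0.27, edgeR adjusted p = 2.3e-05). Ccn1, an integrin ligand and target of YAP, had 440 and 525 CPM in sham and 380 and 356 CPM after tenotomy, and its fall of 0.39 on the log2 scale (edgeR adjusted p = 0.068) was reversed per tube (0.57) and under the offsets (0.26). The Ccn1 call was also lost without sham replicate 2 (edgeR adjusted p = 0.42), without tenotomy replicate 2 (0.16), with library sizes alone (0.58), with no filter (0.24) and in DESeq2 (DESeq2 adjusted p = 0.29).

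Among genes of provisional matrix and hyaluronan, 2 of 5 tested rose and 3 fell. The hyaluronan synthases went in opposite directions. Has2 had 0 and 0 UMIs in sham against 31 and 24 after tenotomy, at least 9.40-fold higher (edgeR adjusted p = 0.000107), while Has1 had 93 and 111 UMIs in sham against 50 and 65 after tenotomy (log2 fold change -1.79, standard error 0.19, edgeR adjusted p = 1.6e-06). The bound for Has2, like that for Itgb6 below, rests on both sham libraries and, as for Spp1, would be lower with a sham library left out. Has1 had fewer UMIs after tenotomy even before scaling, and remained past the threshold per tube at -0.83 (edgeR adjusted p = 0.010). Vcan, which codes for versican, a large hyaluronan-binding proteoglycan, rose from 43.5 and 22.6 CPM to 174 and 138 CPM (log2 fold change 2.20, standard error 0.35, edgeR adjusted p = 9.06e-05). Tnfaip6, whose product transfers heavy chains onto hyaluronan, was the most abundant of the list and fell from 718 and 602 CPM to 268 and 231 CPM (log2 fold change -1.41, standard error 0.17, edgeR adjusted p = 7.46e-06). The third that fell was Vtn, which codes for vitronectin, at -1.41 (standard error 0.35, edgeR adjusted p = 0.00344).

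The other small leucine-rich proteoglycans, relatives of Bgn, all had lower CPM after tenotomy where tested. As lower, 4 of 4 passed the threshold, against 26.3% of all genes tested, with Ecm2 admitted through the sham libraries alone. Per tube 1 was lower and 1 higher. The count of lower genes was 2 under the offsets and 3 in DESeq2 and with library sizes alone. It was also 3 with no filter, with libraries thinned to the smallest and at an adjusted p of 0.05. Ecm2 fell from 65.3 and 63.4 CPM to 10.4 and 18.2 CPM (log2 fold change -2.09, standard error 0.43, edgeR adjusted p = 0.000851). Prelp, which anchors basement membranes to connective tissue and was the most abundant, fell from 666 and 757 CPM to 315 and 377 CPM (log2 fold change -1.03, standard error 0.17, edgeR adjusted p = 0.000116), and did not pass under the offsets (edgeR adjusted p = 0.15) or per tube (edgeR adjusted p = 0.81). Ogn and Dcn fell by 0.98 and 0.38 on the log2 scale (edgeR adjusted p = 0.000511 and 0.0851).

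Among fibulins, fibrillins and microfibril proteins, 1 of 7 tested rose, 3 fell and 3 did not pass, and per tube 4 rose and 1 fell. Fbln1 had 1 and 0 UMIs in sham against 18 and 20 after tenotomy, a ratio of 19.5 (exact 95% interval 3.29 to 790; edgeR adjusted p = 0.00051), and did not pass under the offsets (edgeR adjusted p = 0.18). Its fitted log2 fold change of 4.07 was 3.18 without sham replicate 2 and 7.0 without sham replicate 1, which leaves no sham UMI. Ltbp4, a binder of latent TGF-β and the most abundant of the list, fell from 679 and 666 CPM to 224 and 211 CPM (log2 fold change -1.63, standard error 0.17, edgeR adjusted p = 1.08e-06). Fbln2 and Ltbp1 fell by 1.39 and 1.04 on the log2 scale (edgeR adjusted p = 7.24e-05 and 0.000218), and Fbln2 did not pass per tube (edgeR adjusted p = 0.22).

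Of 16 receptor genes tested, 4 rose, 5 fell and 7 did not pass. With library sizes alone, as under the offsets, 7 rose and 3 fell, and per tube 10 rose. DESeq2 called 2 as higher and 4 as lower, and without sham replicate 1 the fallen numbered 3. Cd36, which codes for a scavenger receptor that binds thrombospondins and fatty acids, had 2 and 2 UMIs in sham against 24 and 37 after tenotomy (log2 fold change 2.91, standard error 0.54, edgeR adjusted p = 0.000366). Itgb6, the β chain of an integrin that binds fibronectin and tenascin-C, had 0 and 0 UMIs in sham against 12 and 20 after tenotomy, at least 5.47-fold higher (edgeR adjusted p = 0.000305, or 0.11 under the offsets). It did not pass the filter without tenotomy replicate 2 or with libraries thinned to the smallest, and was not tested there. Itga5, the α chain of the main fibronectin receptor, fell from 87.1 and 90.6 CPM to 36.4 and 30.4 CPM (log2 fold change -1.41, standard error 0.36, edgeR adjusted p = 0.0039, or 0.35 per tube). Lrp1, an endocytic receptor for thrombospondins and other ligands, fell by 1.22 on the log2 scale (standard error 0.19, edgeR adjusted p = 9.19e-05, or 0.27 per tube).

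Sdc4, a syndecan that acts with integrins at fibronectin and the most abundant receptor of the list over the 4 libraries, though below Dag1 in both tenotomy libraries, had 1837 and 1287 CPM in sham and 975 and 699 CPM after tenotomy (log2 fold change -0.91, standard error 0.19, edgeR adjusted p = 0.0012), but its change was 0.03 per tube and 0.11 under the offsets. Cd44, which codes for the hyaluronan and osteopontin receptor, had 609 and 535 CPM in sham and 606 and 599 CPM after tenotomy and did not pass (log2 fold change 0.07, edgeR adjusted p = 0.736). Itgb1, the shared β chain of many matrix integrins, had 505 and 471 CPM in sham and 601 and 478 CPM after tenotomy and did not pass either (log2 fold change 0.14, edgeR adjusted p = 0.543). Cd44 and Itgb1 fell outside the rule for naming genes and were picked with their values known, as were the remaining called receptors Sdc1 (log2 fold change 0.88), Cd47 (0.38), Itgav (-0.46) and Dag1 (-0.48).

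Of 15 genes for matrix secretion and crosslinking, 4 rose, 6 fell and 5 did not pass. Per tube 9 rose and 1 fell, and DESeq2 called 2 as higher and 4 as lower. Pcolce, an enhancer of procollagen cleavage, rose from 17.4 and 22.6 CPM to 85.8 and 91.1 CPM (log2 fold change 2.13, standard error 0.42, edgeR adjusted p = 0.000668). Plod2, a lysyl hydroxylase of collagen crosslinks, rose from 74.0 and 81.5 CPM to 216 and 215 CPM (log2 fold change 1.47, standard error 0.24, edgeR adjusted p = 0.000129). Loxl2, a lysyl oxidase, fell by 1.61 (standard error 0.22, edgeR adjusted p = 2.36e-05) and Tgm2, a transglutaminase that crosslinks fibronectin, by 1.45 on the log2 scale (standard error 0.24, edgeR adjusted p = 0.000114, or 0.19 per tube). Serpinh1, the collagen chaperone HSP47 and the most abundant of the list, had 631 and 747 CPM in sham and 569 and 450 CPM after tenotomy. Its log2 fold change of -0.44 (edgeR adjusted p = 0.045) was 0.51 per tube and 0.36 under the offsets, and it did not pass without sham replicate 2 (edgeR adjusted p = 0.32), without tenotomy replicate 2 (0.20), with library sizes alone (0.40) or in DESeq2 (DESeq2 adjusted p = 0.17).

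**Figure D3:**
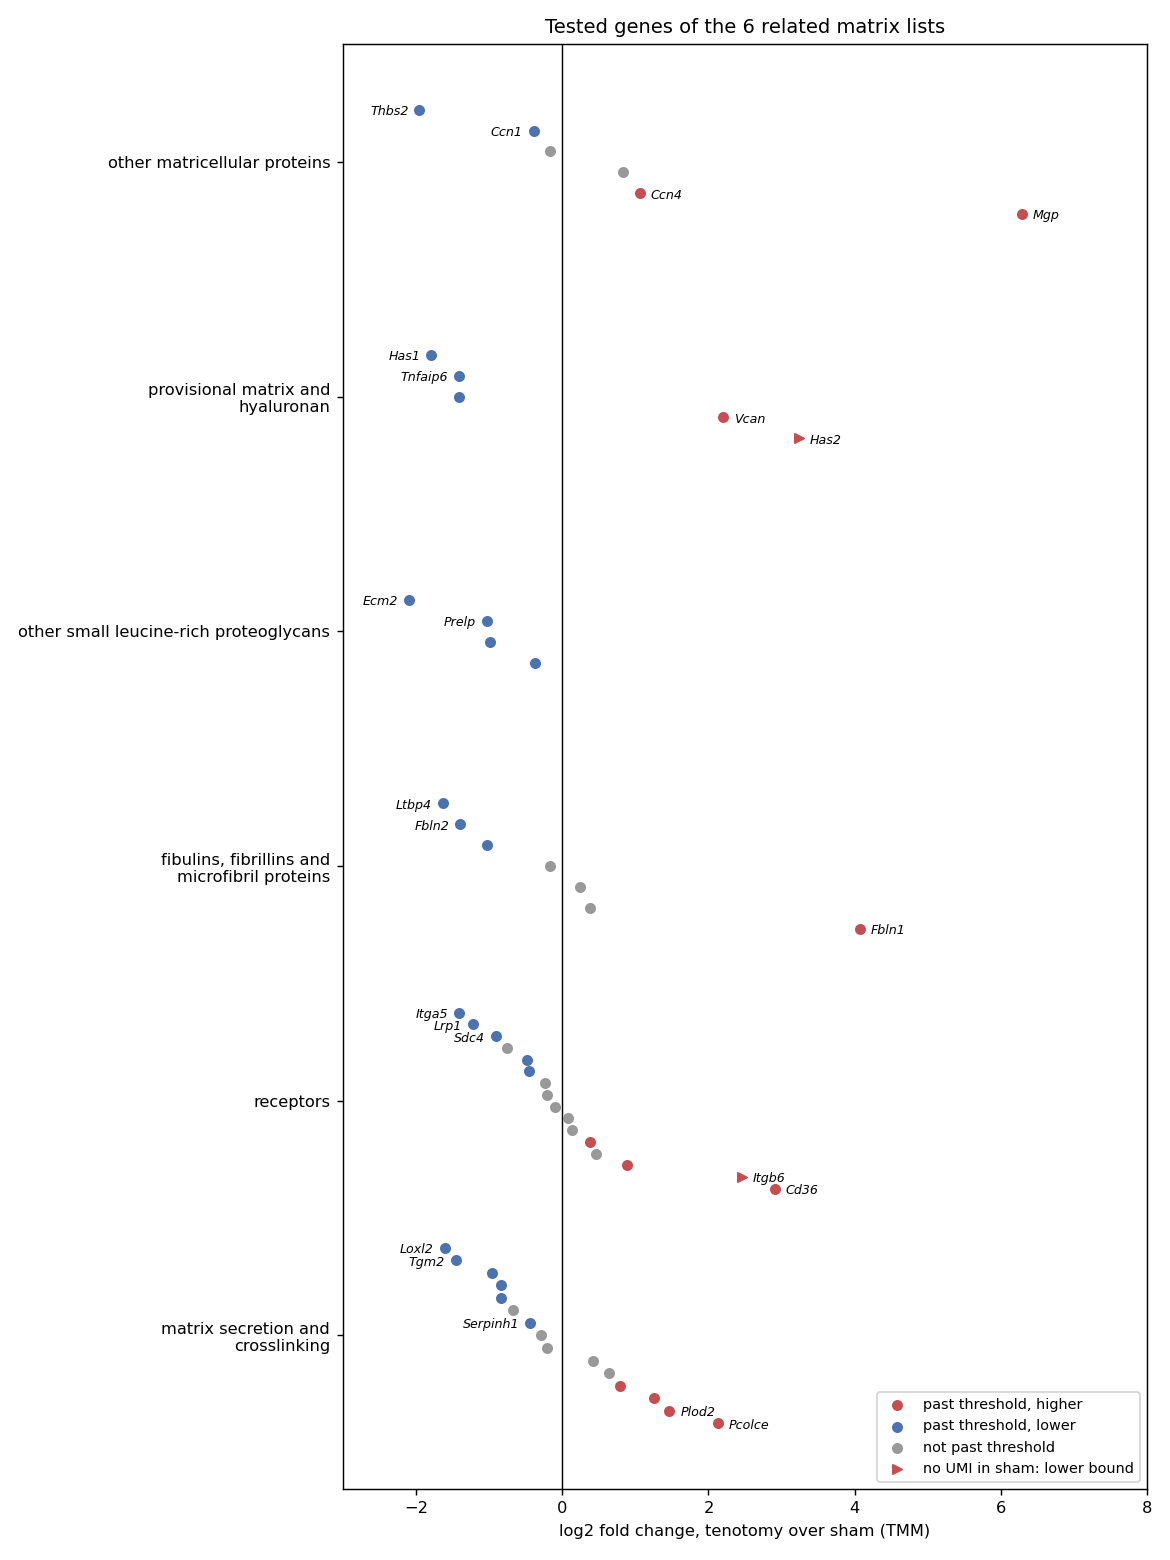
Log2 fold change of tenotomy over sham (x axis, TMM scale, zero line drawn) for the 53 tested genes of the 6 matrix lists, 1 point a gene, red where past the threshold as higher (13), blue as lower (23) and grey where not past it (17). Triangles mark lower bounds for genes with no sham UMI, and Ccn1, Sdc4 and Serpinh1, blue here, had positive changes per tube and under the offsets.

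In libraries of pooled cells, fewer cells of a type and less RNA per cell cannot be told apart. Markers of 8 cell types are therefore given beside the 9 genes. The sort by YFP should have left out cells outside the Pax7 lineage, such as macrophages, tenocytes, fibroblasts, mural, endothelial and Schwann cells. Whether any of them were carried over was not tested. Summed over 9 satellite cell markers, of which Myf5 was the most abundant, the level was 5397 and 5114 CPM in sham and 4350 and 3995 CPM after tenotomy, while in UMIs per tube it went up, from 1240 and 1129 to 1673 and 1973. These markers moved in both directions: by the edgeR fit Pax7, Chodl, Vcam1 and Calcr fell (log2 fold changes -0.84, -1.76, -0.90 and -2.60), Itga7 and Cdh15 rose (0.67 and 0.47), and Myf5, Myod1 and Des did not pass. Per tube Chodl and Calcr also had fewer UMIs after tenotomy, while Pax7 (118 and 107 in sham, 108 and 137 after tenotomy) and Vcam1 (209 and 175, 184 and 215) had slightly more in sum, with the groups overlapping. Over 10 fibroblast and fibro-adipogenic markers it was 4414 and 4181 CPM in sham and 4306 and 3702 CPM after tenotomy, with Col3a1 the most abundant. Of the defining genes of those cells, Pdgfra had 0, 0, 2 and 0 UMIs and Pi16 had 1, 0, 0 and 0 in sham replicates 1 and 2 and tenotomy replicates 1 and 2, while Ly6a had 1 and 0 in sham and 22 and 41 after tenotomy. Of the 6 markers tested, Ly6a, which entered the fit through the tenotomy libraries alone, and the collagen gene Col1a2, with 74 and 55 UMIs in sham against 426 and 465 after tenotomy (edgeR adjusted p = 1.03e-06), rose. Dpt fell from 570 and 571 CPM to 213 and 211 CPM (edgeR adjusted p = 4.59e-06), Col3a1 from 2211 and 2088 CPM to 1607 and 1383 CPM (edgeR adjusted p = 0.013) and Dcn as given above, although Col3a1 and Dcn had more UMIs per tube after tenotomy. Col1a1 did not pass (edgeR adjusted p = 0.966).

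Markers of tenocytes were near 0 in sham, where the sum of 5 was 8.71 and 27.2 CPM, and at 130 and 128 CPM after tenotomy. Most of this was Scx, a transcription factor of tendon, with 1 and 2 UMIs in sham against 40 and 61 after tenotomy, while Mkx, another, had 1 and 4 in sham and 1 and 2 after tenotomy. The more specific Tnmd and Chad had 0 UMIs in sham and in tenotomy replicate 2 and 1 each in tenotomy replicate 1. Markers of macrophages, a known source of Spp1 and Fn1 in injured muscle, had 13 and 8 UMIs in sham against 84 and 233 after tenotomy over all 14 genes, or 56.6 and 36.2 CPM against 218 and 472 CPM. The most abundant was Lyz2, with 0 and 0 UMIs in sham against 17 and 38 after tenotomy, and 10 of the 14, among them Csf1r and Adgre1, were at 0 in both sham libraries. Gpnmb, with 11 and 2 UMIs in sham against 5 and 8 after tenotomy, made up most of the sum in sham replicate 1. Between the tenotomy libraries the macrophage sum was higher in replicate 2. In CPM, 1500015O10Rik and Tnc were also higher in replicate 2, and the other 7 of the 9 genes in replicate 1. The part of macrophage, tenocyte or fibroblast RNA in the levels of the 9 genes was not tested.

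Mural cell markers, mostly Acta2, which activated myogenic cells also express, summed to 770 and 693 CPM in sham and 1191 and 1365 CPM after tenotomy. Among them Rgs5 had 13 and 4 UMIs in sham against 38 and 86 after tenotomy. Tagln fell from 178 and 163 CPM to 127 and 99.2 CPM (edgeR adjusted p = 0.0453), although its UMIs per tube were higher, 49 and 49 after 41 and 36 in sham. Myofiber markers, led by Ckm in sham and by Mylpf after tenotomy, summed to 844 and 399 CPM in sham and 1745 and 1586 CPM after tenotomy. Endothelial markers were at 118 and 90.6 CPM against 107 and 115 CPM. Among these, Tek fell from 43.5 and 54.4 CPM to 13.0 and 22.3 CPM (edgeR adjusted p = 0.0154). Tek entered the fit through the sham libraries alone, the group in which it was high, and its p-value is to be read with that limit. Cdh5 had 3 and 1 UMIs in sham against 14 and 11 after tenotomy. Schwann cell markers, led by Ngfr, were at 21.8 and 36.2 CPM against 59.8 and 50.6 CPM. Their part was not tested either.

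**Figure D4:**
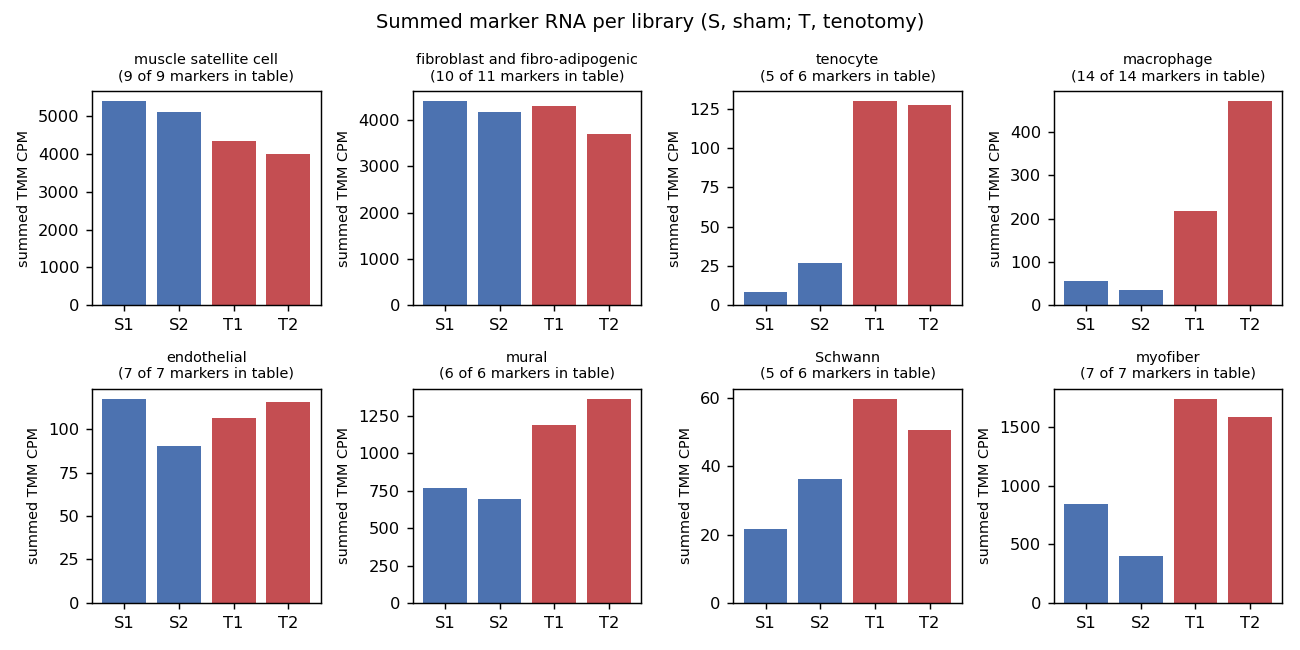
Summed level of the markers of 8 cell types (y axis, TMM CPM, linear from 0, a scale for each panel) in sham replicates 1 and 2 (S1 and S2, blue) and tenotomy replicates 1 and 2 (T1 and T2, red), each bar 1 library. Macrophage markers were at 56.6 and 36.2 CPM in sham and 218 and 472 CPM after tenotomy, and satellite cell markers at 5397 and 5114 against 4350 and 3995 CPM.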

How the data were processed

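MuSC libraries of sham and tenotomy muscle, 2 of each, were made by CEL-Seq2. Per the labels and the methods, the authors extracted UMIs with UMI-tools (1.0.0), aligned reads to GRCm38 with HISAT2 (2.1.0) and assigned them with featureCounts (1.6.4). They deposited UMI counts of 19353 genes in every library, not normalized. The annotation release and strand setting are not given in the sources used here. Of the 19353 gene identifiers, all matched GENCODE M21, which gave the coordinates.

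All libraries entered 1 fit in edgeR (4.0.16, R 4.3.3): TMM factors, filterByExpr by surgery (minimum count 10, minimum total 15), glmQLFit and glmQLFTest, with Benjamini-Hochberg adjustment over 7228 genes at a threshold of 0.1. The common biological coefficient of variation was 9.5%. The study's methods used DESeq2 at this threshold, which is tried here (1.42.0) as an alternative. Floors of 3 counts over a group and exact binomial intervals of 95% cover counting error only. The floors cover that of the sham group alone, so the bounds are less strict than the exact intervals. Promoter windows and motifs were read from RefSeq (GRCm38.p6). Python (3.11.15), numpy (2.4.6), pandas (2.3.3), scipy (1.17.1) and matplotlib (3.10.9) served for counting and plots; limma (3.58.1) for limma-voom.

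The fit was tested on simulated counts of these libraries with 200 genes changed. It ran on 7137 genes, of which 156 were changed ones. The fit found 57.5% of the 2-fold and 96.1% of the 4-fold changes, with 0 in the wrong direction and 14 unchanged genes called. So few changed genes make the adjusted threshold stricter than in these data, where 52.1% of the genes tested were called. The 9 genes and the lists were chosen with earlier results of these data known. From each list the text names the 2 strongest rises and the 2 strongest falls past the threshold and the most abundant gene, plus further genes where a list had few calls, picked with their values known. Of each marker list it names the most abundant gene and, where they bear on the 9 genes, further markers.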

Additional observations from a re-analysis of the deposited data

How the results depend on the processing

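Over all 7228 genes tested, 1868 were higher and 1898 lower after tenotomy, and among the matrix lists 13 and 23. With DESeq2 967 and 1215 of all genes were called, and 9 and 19 of the lists. Library sizes alone gave 2694 higher and 1351 lower (66.6% of the calls higher, against 49.6%), and 20 and 18 of the lists. UMIs per tube without scaling gave 4481 and 331 (93.1% higher), and 31 and 6 of the lists. The median log2 fold change of all genes was 0.05 under TMM, 0.33 with library sizes alone and 1.01 per tube, above the per-tube values of Sparc, Thbs1 and Bgn. Among the genes past the threshold that the naming rule chose, those reversed per tube and under abundance offsets were Sparc (0.21 and 0.36), Ccn1 (0.57 and 0.26), Sdc4 (0.028 and 0.11) and Serpinh1 (0.51 and 0.36), and the cause was not tested. Thbs1 and Bgn, not past the threshold, also turned positive under both (0.73 and 0.39, 0.83 and 0.39). The fallen genes Dcn, Dag1, Itgav, P4ha1, Bmp1, Col3a1, Pax7, Vcam1 and Tagln had more UMIs in sum after tenotomy. With 1 library left out, 1360 to 1668 genes were higher and 1489 to 1720 lower, and 11 to 13 and 20 to 22 of the lists. DESeq2 size factors, limma-voom, no filter, a filter of 10 counts in every library of 1 group, thinning to the smallest library, a prior count of 2 and an adjusted p of 0.05 kept these 4 counts within 1.5 times. Replicate numbers are shared between the groups, but the labels say nothing of a shared animal or day. The paper describes sham muscle as contralateral in other experiments, so a sham and a tenotomy library could come from the same mouse. The differences of replicate 1 from replicate 2 were not related between the groups across 7228 genes (r = -0.0344). Libraries of a group differed by little more than sampling noise, so this value cannot tell whether sham and tenotomy libraries were paired. The replicate block gave 1806 higher and 1864 lower, and 14 and 23 of the lists. With 2 libraries a group at this depth, 2-fold changes were often missed, and genes with few UMIs, such as Thbs4, did not pass the filter and were not tested.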
